A study of Rattus norvegicus with 7 samples.

Results

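In all, 10 genes of the regulated secretory pathway were read in rat hippocampus and hypothalamus: the prohormone convertases Pcsk1 and Pcsk2, their small partner proteins Pcsk1n and Scg5, the trimming and amidating enzymes Cpe and Pam, and the granins Chga, Chgb, Scg2 and Scg3. They were chosen by symbol, and where a symbol had several rows the row with the highest mean was used. Of these 10 genes, the hypothalamus table listed 10 (of 16163 symbols). The hippocampus table listed a total of 9 (of 16153 symbols), and 9 stood in both, which share 15805 symbols. Scg2 was analysed in hypothalamus only.

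The libraries came from male Sprague Dawley rats, an outbred laboratory strain, which were 2 months old when they were assigned to a diet. All 7 libraries were from rats fed for 6 weeks with DHA (docosahexaenoic acid, an omega-3 fatty acid of brain membranes), 4 from hippocampus and 3 from hypothalamus. Libraries of chow-fed rats were not analysed here, no effect of DHA can be given, and every value below belongs to DHA-fed rats. The labels do not say that each library is a separate animal, so spread between libraries may be technical, and whole dissected tissue was sequenced, in which fewer cells of a type and less RNA per cell cannot be told apart.

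Neuropeptides are made as long inactive precursors that are sorted into dense-core vesicles, cut after pairs of basic residues by the convertases encoded by Pcsk1 and Pcsk2, trimmed by carboxypeptidase E and, for many peptides, amidated at the end by the enzyme that Pam encodes. ProSAAS (Pcsk1n) and 7B2 (Scg5) bind the convertases, and the granins are acidic proteins that help pack the vesicles and are themselves cut into peptides. The hypothalamus is known for neurons that release such peptides as hormones, while in the hippocampus they act mostly beside fast transmitters.

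Promoter stretches are shown because granin genes are a textbook case of control through the cyclic AMP response element, whose full palindrome is TGACGTCA and whose shorter form is TGACG, which appears as CGTCA when it lies on the opposite strand. RefSeq sequences of the rat build GRCr8 were matched by symbol for 8 of the 10 genes, all but Pcsk1 and Chga, and searched on both strands over the 250 bases before the start. The shorter form is part of the palindrome, and its search was added after the data were seen. In the lines below capitals mark the match, and each stretch reads 5′ to 3′ on the gene's own strand.
Scg2: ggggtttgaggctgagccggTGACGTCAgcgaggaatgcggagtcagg
Scg3: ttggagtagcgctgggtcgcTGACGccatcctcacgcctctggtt
Scg5: agcttggttgcggagggaggTGACGca
Pcsk2: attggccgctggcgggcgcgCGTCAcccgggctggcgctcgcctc
Cpe: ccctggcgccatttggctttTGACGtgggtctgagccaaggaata
Pam: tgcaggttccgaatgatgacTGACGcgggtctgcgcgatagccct
These lie at chr9:88256962-88257009 (Scg2, minus strand), chr8:85322529-85322573 (Scg3, minus), chr3:121042796-121042822 (Scg5, minus), chr3:151333861-151333905 (Pcsk2, plus), chr16:29796514-29796558 (Cpe, plus) and chr9:105570243-105570287 (Pam, plus), all upstream of the annotated start. The palindrome was found for 1 of the 8 genes, Scg2, where its bases lie 116 to 123 before the start, and in 1.59% of 33469 rat promoters of the same length. The shorter form was found for 6 of the 8 and in 18.2% of all promoters. Neither Pcsk1n nor Chgb had a match. A match describes the letters only, and binding was not measured.

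Values are FPKM (sequenced fragments per kilobase of a transcript and per unit of library size), so genes can be ranked within a tissue. Depth cannot be read from them and no counting interval is given. FPKM summed over all rows to between 370020 and 391349 per hippocampus library and between 443335 and 471484 per hypothalamus library. The labels' tissues were checked against markers: each of 6 hippocampal excitatory markers read higher in the 4 hippocampus libraries than in any from hypothalamus, and each of 11 hypothalamic markers the reverse. Replicate 1 of each tissue stood apart. Of rows with at least 5 FPKM in every other library of the tissue, 286 were under 0.1 times the lowest of these in hippocampus replicate 1 and 182 in hypothalamus replicate 1, against at most 11 in any other library. Differences between tissues are therefore also given for each gene, and calls for each list, without both libraries numbered 1.

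Pcsk1 and Pcsk2 encode the convertases PC1/3 and PC2. As listed, Pcsk2 was the far more abundant of the pair in both tissues. It read 90.9, 90.0, 82.8 and 65.0 FPKM in hippocampus replicates 1 to 4, a mean of 82.2 ± 12.01 FPKM (SD, n = 4). In hypothalamus it read 43.5, 41.0 and 47.6 FPKM, a mean of 44.0 ± 3.33 FPKM (SD, n = 3). Every hippocampus library lay above every hypothalamus library.

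Because each tissue has its own table, whose normalization is not given in the sources used here, levels were set across tissues only after each library had been rescaled to a sum of 1000000 over the shared symbols. A gene was called higher in a tissue when no library overlapped and the means of log2(rescaled value + 1) were at least 2-fold apart. Leaving out libraries cannot make libraries that lay apart overlap, so a call can then be lost only through the 2-fold rule or a low mean. Without both libraries numbered 1, 18.1% of all symbols were called higher in hippocampus and 15.9% in hypothalamus, against 14.5% and 13.4% with all libraries. No test was made across the tables, in which tissue and table cannot be told apart. On this scale the Pcsk2 difference, hypothalamus minus hippocampus, was −1.18 (SE 0.12), a 2.27-fold higher level in hippocampus. The libraries stayed apart under each of 5 scalings, but the difference was −0.88 on FPKM as deposited and −0.90 when 10 general neuronal markers were set equal, short of 2-fold. Of these 10 markers, 2 were called higher in each tissue (of all symbols, 14.5% in hippocampus and 13.4% in hypothalamus). By overlap alone, 5 lay higher throughout hippocampus (28.2% of all symbols) and 2 throughout hypothalamus (24.4%), and their median difference was −0.71. One of these markers, Nefl, read 0.174 FPKM in hippocampus replicate 1 and 174 to 288 FPKM in the other hippocampus libraries. The mean log2(FPKM + 1) of the markers was 6.27 in that library and 6.67 to 6.94 in the others of hippocampus. The scaling by these markers rests in part on that low value, and a scaling without Nefl was not run. The Pcsk2 difference was −1.13 without both libraries numbered 1.

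Pcsk1 was listed near the floor of both tables. It read 0.450, 0.601, 0.568 and 0.538 FPKM in hippocampus and 0.378, 0.220 and 0.240 FPKM in hypothalamus, at percentile 32.7 of hippocampal and 27.5 of hypothalamic symbols. The hippocampus libraries were all higher, yet the gene did not pass the filter, a tissue mean of 1 FPKM or more. Its rescaled difference of −0.63 (SE 0.12) became −1.16 with a pseudocount of 0.1 and −0.27 on FPKM as deposited, and was −0.78 without both libraries numbered 1. The level itself is unsure because of where the row stands. Rows follow chromosome order, and 98.4% of the rows that could be placed (14644 in hippocampus, 14369 in hypothalamus) have a RefSeq neighbour of their gene among the 10 rows around them, but the Pcsk1 row had 0 of 10 in both tables. It stood between Ralyl and Chmp4c, which lie 340 and 345 places from Pcsk1 along rat chromosome 2. Whether the row holds the transcript of Pcsk1 was not tested.

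Pcsk1n encodes proSAAS, an inhibitor of PC1/3. It was the gene that differed most between replicates of hippocampus after Chga. It read 156, 117, 26.3 and 23.9 FPKM there, with replicates 1 and 2 high and replicates 3 and 4 low, and 8.66, 7.70 and 18.6 FPKM in hypothalamus. The lowest hippocampus library was still above the highest hypothalamus library. Its rescaled difference was −2.69 (SE 0.79), a 6.44-fold higher level in hippocampus, and it ran from −2.69 to −2.33 over the 5 scalings. Leaving out both libraries numbered 1 gave −2.07, and the call stood.

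The rows of Pcsk1n call for care. Hypothalamus had another row for this gene, at 0.516, 0.497 and 0.0562 FPKM, and it is this low row that stands between Slc38a5 and Timm17b, as the hippocampal row does. The hypothalamic row used above stands between the Timm17b rows. With the row that has the same neighbours as in hippocampus, an alternative chosen after the data were seen, the difference was −6.58 instead of −2.69, so its size turned on the row while the call did not. Timm17b is a gene for mitochondrial protein import, and both of its rows were listed at 0.0711 FPKM or less in hippocampus and at 0 in hypothalamus. How fragments were shared among these rows was not tested. Within hippocampus the replicates ranked alike for Pcsk1n, Pcsk2 and the summed excitatory neuron markers, which read 1376, 1123, 1029.9 and 963 FPKM, and also for the summed microglia markers, at 111, 100.5, 95.2 and 83.3 FPKM. Their part in the differences between replicates was not tested.

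Scg5 encodes 7B2, the chaperone that PC2 needs to mature. Of the genes in both tables it had the smallest rescaled difference. Its FPKM were 330, 307, 265 and 289 in hippocampus and 348, 334 and 416 in hypothalamus, means of 297.6 ± 27.7 (SD, n = 4) and 366 ± 43.7 (SD, n = 3). After rescaling, the libraries overlapped and the difference was −0.0015 (SE 0.096). It was 0.30 on FPKM as deposited, where the hypothalamus libraries all lay higher, and in the other 4 scalings the libraries overlapped. Without both libraries numbered 1 it was 0.075.

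The ratio of Scg5 to Pcsk2 within a library does not depend on how that library was scaled. It was 3.67 ± 0.547 in hippocampus (SD, n = 4), from 3.20 to 4.45, and 8.30 ± 0.386 in hypothalamus (SD, n = 3), from 8.02 to 8.74. With any library left out the means stayed between 3.41 and 3.83 and between 8.08 and 8.44. The groups did not overlap, so hypothalamus carried more chaperone transcript for each convertase transcript. The ratio of Pcsk1 to Pcsk2 overlapped, at 0.00496 to 0.00829 in hippocampus and 0.00505 to 0.00871 in hypothalamus. That of Pcsk1n to Pcsk1 overlapped too, at 44.3 to 347 and 22.9 to 77.4, and both ratios rest on the unsure Pcsk1 row.

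**Figure D1:**
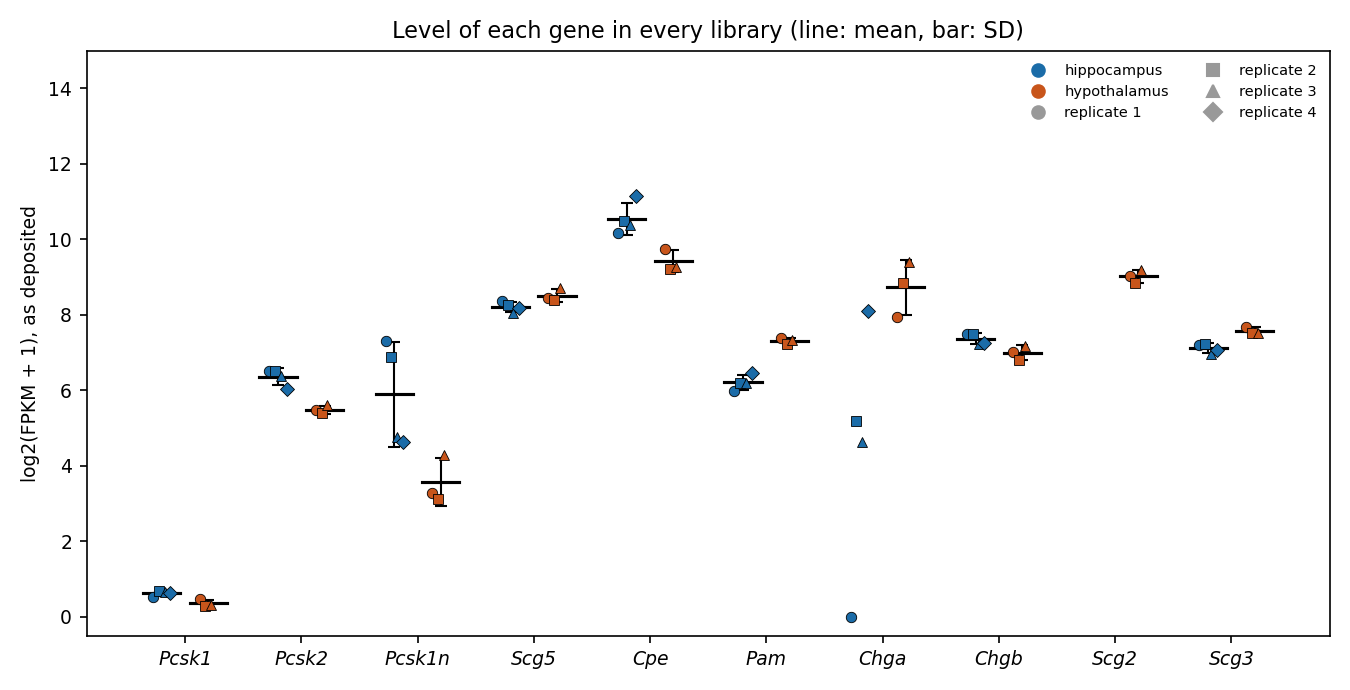
Level of each gene in every library as log2(FPKM + 1) on deposited values (blue: hippocampus, n = 4; orange: hypothalamus, n = 3; shapes: replicates; line and bar: mean and SD, left out where a library is listed at 0). By mean, Cpe is the highest gene in both tissues and Pcsk1 the lowest. Chga exceeds Cpe in hypothalamus replicate 3 and, at 0, lies below Pcsk1 in hippocampus replicate 1. The hippocampal points of Chga and Pcsk1n are the most scattered.

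Cpe encodes carboxypeptidase E, which removes the basic residues left by the convertases. By mean it was the most abundant of the genes in both tissues and ranked 9 among all hippocampal symbols. Hippocampus libraries read 1158, 1444, 1333 and 2287 FPKM, a mean of 1555 ± 502 FPKM (SD, n = 4). Hypothalamus libraries read 862, 598 and 617 FPKM, a mean of 693 ± 147 FPKM (SD, n = 3), where the gene ranked 67. The tissues did not overlap, and hippocampus replicate 4 was well above the others.

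After rescaling, the Cpe difference was −1.44 (SE 0.28), a 2.71-fold higher level in hippocampus. It was called under all 5 scalings, from −1.44 to −1.14, and without both libraries numbered 1 it was −1.74. Leaving out hippocampus replicate 4 gave −1.24. Markers of choroid plexus, a secretory tissue that adjoins the hippocampus, differed among the hippocampus libraries. They summed to 4754, 35.0, 5972 and 2078 FPKM in hippocampus and 34.3 to 72.1 FPKM in hypothalamus. Their part in the level of Cpe was not tested.

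Pam encodes the enzyme that makes the amidated end of many peptides. Its direction was opposite to that of Cpe. It read 62.3, 72.8, 72.8 and 87.1 FPKM in hippocampus, a mean of 73.8 ± 10.2 FPKM (SD, n = 4), and 167, 149.9 and 159 FPKM in hypothalamus, a mean of 159 ± 8.39 FPKM (SD, n = 3). All hypothalamus libraries were higher, by 0.81 (SE 0.11) or 1.76-fold after rescaling, which is short of the 2-fold rule. The libraries were apart under all 5 scalings, and the difference passed 2-fold in 2 of them, at 1.10 as deposited and 1.08 with equal neuronal markers. Without both libraries numbered 1 it was 0.69. In both tables the Pam row stood between Fbxl17 and Gin1 among genes of the minus strand (9 of 9 with a known strand), while RefSeq places Pam on the plus strand. Of the rows whose strand could be judged, 87.9% of 11678 in hippocampus and 89.5% of 11491 in hypothalamus stood among genes of their own strand. What this means for the Pam values was not tested.

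The ratio of Cpe to Pam showed the opposite directions within each library. It was 20.7 ± 3.73 in hippocampus (SD, n = 4), from 18.3 to 26.2. In hypothalamus it was 4.35 ± 0.722 (SD, n = 3), from 3.87 to 5.18, with no overlap. Leaving out any library kept the means between 18.9 and 21.6 in hippocampus and between 3.93 and 4.58 in hypothalamus.

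**Figure D2:**
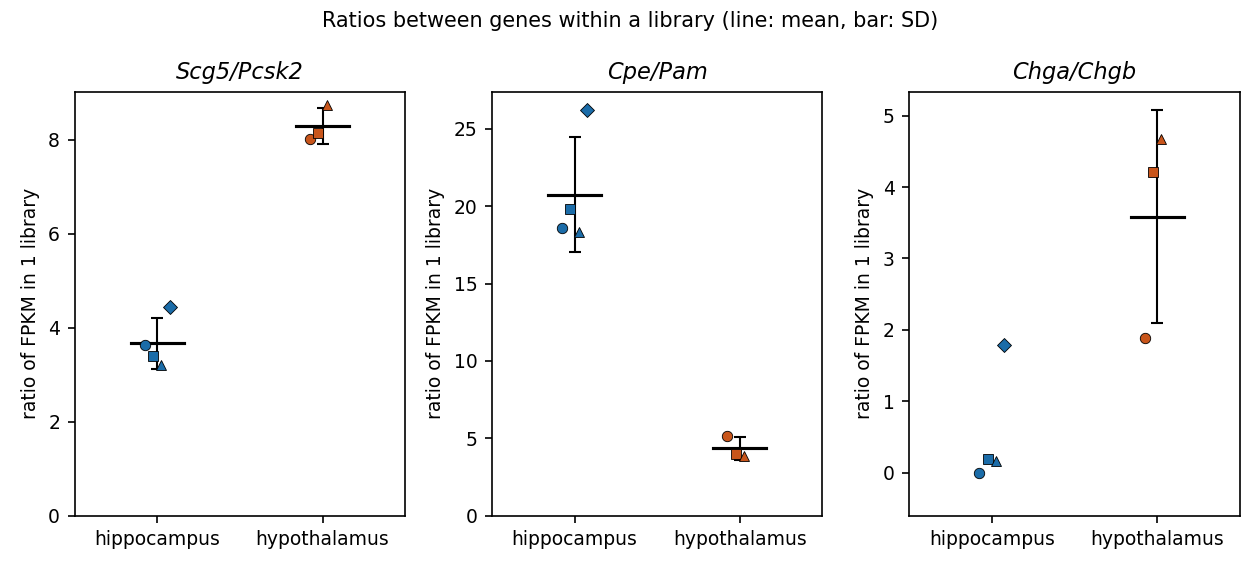
Ratio of FPKM between a pair of genes within each library (vertical axes: ratio; blue: hippocampus, n = 4; orange: hypothalamus, n = 3; line and bar: mean and SD, left out for hippocampal Chga/Chgb, where a library is at 0). Scg5/Pcsk2 lies higher in hypothalamus (8.02 to 8.74) than in hippocampus (3.20 to 4.45), and Cpe/Pam the other way round.

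The granins followed no common direction. Chga encodes chromogranin A, the founding granin and the precursor of several bioactive peptides. In hypothalamus it read 244, 462 and 670.2 FPKM, a mean of 459 ± 213 FPKM (SD, n = 3). The hippocampal row with the highest mean was listed at 0, 35.6, 23.8 and 273 FPKM, from 0 in replicate 1 to the level of a hypothalamus library in replicate 4. After rescaling the tissues overlapped, with 0 to 781 in hippocampus and 580 to 1509 in hypothalamus, and they overlapped under all 5 scalings.

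A further hippocampal row of Chga was far steadier, at 34.7, 27.9, 29.8 and 15.8 FPKM, a mean of 27.0 ± 8.02 FPKM (SD, n = 4). It stood between Golga5 and Ubr7, as the hypothalamic row does, and among genes of the plus strand. The row used above stood between Lgmn and Itpk1, among genes mostly of the minus strand. With the row that has the same neighbours as in hypothalamus, an alternative chosen after the data were seen, all hypothalamus libraries lay higher, by 3.71, and Chga was called higher in hypothalamus.

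The result for Chga therefore turned on the row and on the libraries. With the row of highest mean, Chga was called higher in hypothalamus without hippocampus replicate 4 and without hypothalamus replicate 1, where the size depends on the pseudocount because hippocampus replicate 1 is at 0, and at 2.86 without both libraries numbered 1. It overlapped, and was not called, with its rows summed (2.20) or without hippocampus replicate 1 (2.48). Genes of the anterior pituitary, a gland rich in granins that hangs below the hypothalamus, were also read in the hypothalamus libraries: 9 markers summed to 109.8, 335 and 232 FPKM there and to 0.549 to 1.40 FPKM in hippocampus. Of these, Cga, the shared subunit of several pituitary hormones, read 70.4, 282 and 183 FPKM, while the growth hormone gene Gh1 read at most 0.237 FPKM and prolactin (Prl) was listed at 0 in every library. Their part in the level of Chga was not tested.

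**Figure D3:**
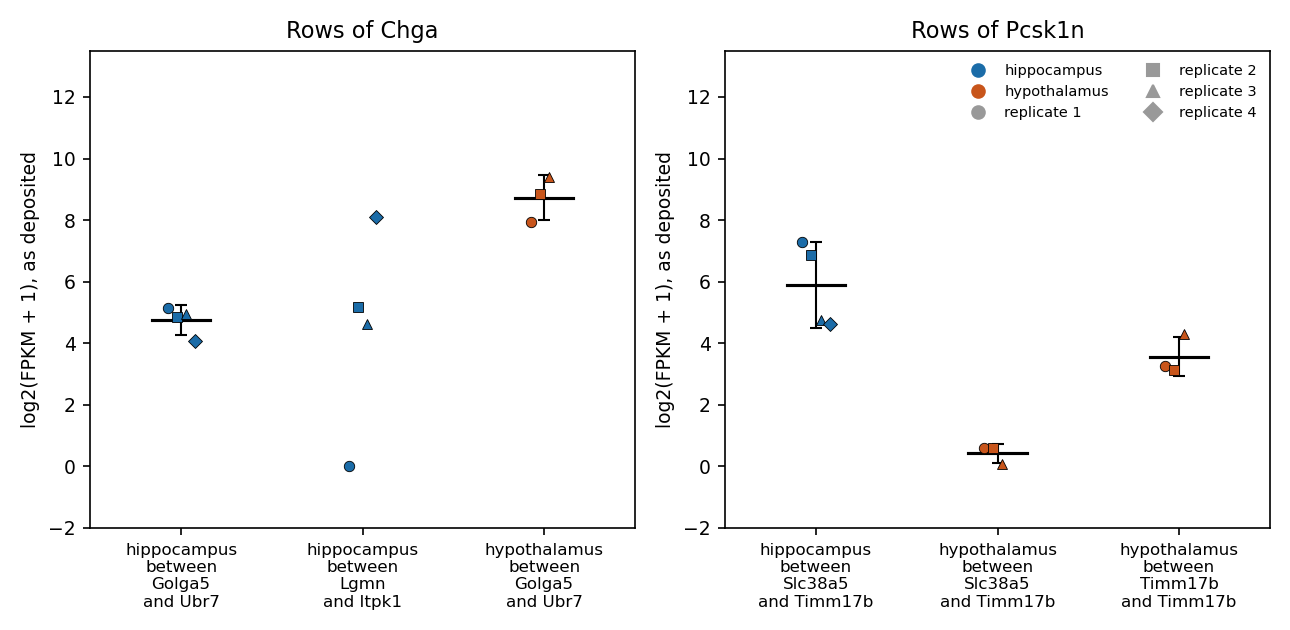
All rows of Chga (left) and Pcsk1n (right), named by tissue and by the rows they stand between, as log2(FPKM + 1) per library (blue: hippocampus, n = 4; orange: hypothalamus, n = 3; shapes: replicates; line and bar: mean and SD, left out where a library is at 0). The Chga row between Golga5 and Ubr7 reads 15.8 to 34.7 FPKM in hippocampus and 244 to 670.2 FPKM in hypothalamus, while the row between Lgmn and Itpk1 runs from 0 to 273 FPKM.

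Chgb encodes chromogranin B. It was steady within each tissue, at 179, 179, 149.7 and 152 FPKM in hippocampus, a mean of 165 ± 16.6 FPKM (SD, n = 4), and at 129, 109.9 and 144 FPKM in hypothalamus, a mean of 128 ± 16.9 FPKM (SD, n = 3). Every hippocampus library was higher. The rescaled difference was −0.67 (SE 0.11), 1.59-fold, so it was not called, and under the 5 scalings it stayed between −0.67 and −0.37 with no overlap. It was −0.65 without both libraries numbered 1. The ratio of Chga to Chgb was 1.88 to 4.67 in hypothalamus and 0, 0.198, 0.159 and 1.79 in hippocampus, without overlap, although the highest hippocampal ratio came close to the lowest hypothalamic one.

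Scg3 encodes secretogranin III, which binds chromogranin A at the vesicle membrane. It read 146, 149.7, 124 and 134 FPKM in hippocampus, a mean of 139 ± 11.7 FPKM (SD, n = 4). In hypothalamus it read 204, 183 and 183 FPKM, a mean of 190.3 ± 12.2 FPKM (SD, n = 3). After rescaling the libraries overlapped, with a difference of 0.16 (SE 0.09). The order depended on the scaling: hypothalamus libraries were all higher in 3 of the 5, with differences up to 0.46 on FPKM as deposited. Without both libraries numbered 1 the difference was 0.13. The Scg3 row stood between Mapk6 and Gfral in hippocampus and between Tmod2 and Bmp5 in hypothalamus. Of the 10 rows around it, 7 in hippocampus and 8 in hypothalamus were RefSeq neighbours of Scg3. What the differing neighbours mean for its values was not tested.

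Scg2 encodes secretogranin II, the precursor of secretoneurin. In hypothalamus it read 519.6, 461 and 582 FPKM, a mean of 521 ± 60.9 FPKM (SD, n = 3), below Cpe alone by mean. It was 2.75 ± 0.377 times as abundant as Scg3 in the same libraries (SD, n = 3), from 2.51 to 3.18. It made up 19.6% to 20.6% of the summed FPKM of the 10 genes there.

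Ranked by mean FPKM, hippocampus ran from Cpe over Scg5, Chgb, Scg3, Chga, Pcsk2, Pcsk1n and Pam to Pcsk1. Cpe and Scg5 were each apart from the next gene in every library, and so was Pam from Pcsk1. The genes from Chgb to Pam overlapped with their neighbours in this order, although Chgb read above Scg3 in 4 of 4 libraries. The place of Chga rests on replicate 4: its mean was 83.0 FPKM with it and 19.8 FPKM without it, below Pam, and it read above Pcsk2 in 1 of 4 libraries. In hypothalamus the order was Cpe, Scg2, Chga, Scg5, Scg3, Pam, Chgb, Pcsk2, Pcsk1n and Pcsk1, and of neighbours in this order only Scg2 with Chga and Chga with Scg5 overlapped. Chga also overlapped with Cpe, which it exceeded in replicate 3. Pcsk2 stood at percentile 95.1 of hippocampal and 88.2 of hypothalamic symbols. Cpe alone made up 54.5% to 69.1% of the summed FPKM of the listed genes in hippocampus and 21.7% to 34.1% in hypothalamus, where Scg2 was part of the sum. The sum itself was 2078 to 3311 FPKM per hippocampus library over 9 genes and 2347 to 2838 FPKM per hypothalamus library over 10.

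Spread between replicates also set these genes apart from each other. The SD of log2(FPKM + 1) had a median of 0.227 over 10309 hippocampal and 0.246 over 10757 hypothalamic symbols. In hippocampus Chga, with a library at 0, reached 3.35, above 99.9% of symbols, and 1.86 to 4.10 on leaving out each library in turn. There Pcsk1n reached 1.39, above 98.7% of symbols, and Cpe 0.42, whereas Scg5, Chgb and Scg3 lay between 0.12 and 0.14. In hypothalamus Chga (0.74) and Pcsk1n (0.64) varied most, while Scg3 (0.09) and Pam (0.08) lay below that median. Several of these values rest on 1 library. The SD of Pcsk1n in hypothalamus was 0.11 without replicate 3, that of Chga there 0.38 without replicate 1, and that of Cpe in hippocampus 0.16 without replicate 4. On leaving out each library in turn, the hypothalamic SD ran from 0.0014 to 0.11 for Scg3 and from 0.045 to 0.11 for Pam. Hippocampus replicate 4 was the highest library for Cpe and Pam and the lowest for Pcsk2 and Pcsk1n, and replicate 1 was the reverse for all 4 of these genes.

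Over the 8 genes that passed the filter in both tables, 3 were called higher in hippocampus (Pcsk2, Pcsk1n and Cpe), beside 14.5% of all 10736 symbols compared. None was called higher in hypothalamus, beside 13.4% of all symbols. By overlap alone, 4 were higher in every hippocampus library (28.2% of all symbols) and 1, Pam, in every hypothalamus library (24.4% of all symbols). The remaining 3, Scg5, Chga and Scg3, overlapped. The median difference of the 8 was −0.34 and that of all symbols −0.051. With FPKM as deposited these were −0.038 and 0.21. On that scale, and with equal neuronal markers, 2 of the 8 were called higher in hippocampus (Pcsk1n and Cpe) and 1 in hypothalamus (Pam). Of all symbols, 8.64% and 16.9% were called in these directions as deposited, and 8.9% and 15.4% with equal neuronal markers.

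**Figure D4:**
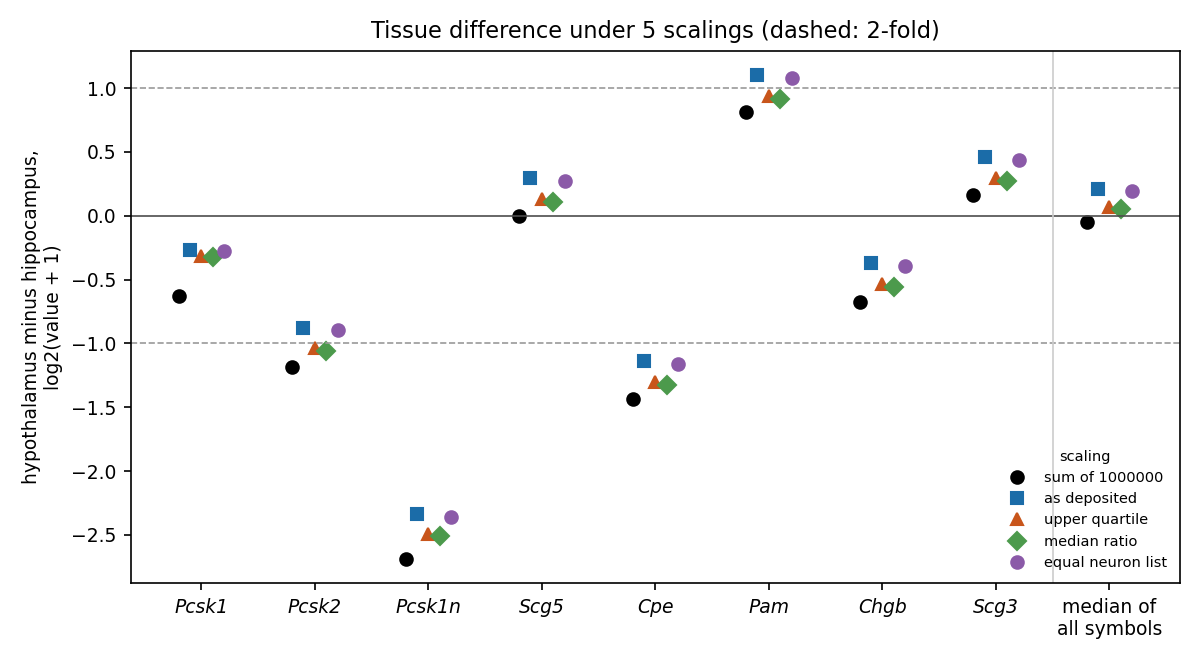
Hypothalamus minus hippocampus of mean log2(value + 1) for 8 genes under 5 scalings, with the median of all symbols at the right (dashed lines: 2-fold; Chga, which has a library at 0, and Scg2 are not drawn). Pcsk1n and Cpe lie beyond 2-fold under every scaling, Pcsk2 under 3 of 5 and Pam under 2 of 5, while Scg5 moves from −0.0015 to 0.30.

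Profiles over the 7 libraries were compared by the root mean square distance of centred log2 values, which depends on few libraries and is a description. Nearest to Pcsk2 among 10735 symbols were Wipi2 (distance 0.043), Ndrg4 (0.070) and Lman2l (0.073). Ndrg4 averaged 705 FPKM in the hippocampus libraries and 371 FPKM in those of hypothalamus. Nearest to the unsure row of Pcsk1 were Zhx3 (0.036), Cops8 (0.059) and Sfmbt1 (0.065), and nearest to the mean profile of the genes were Abcc2 (0.092), Fam120b (0.094) and Tcf20 (0.099).

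Other genes of the pathway were read from lists. Among 5 other proprotein convertases that passed the filter, 0 were called in either direction, beside 14.5% of all symbols for hippocampus and 13.4% for hypothalamus. By overlap alone, 2 were higher in each tissue (28.2% and 24.4% of all symbols). Furin, the convertase of the constitutive pathway, averaged 8.48 ± 1.17 FPKM in the hippocampus libraries (SD, n = 4) and 8.57 ± 0.887 FPKM in those of hypothalamus (SD, n = 3), and these overlapped. Pcsk4 was higher in every hypothalamus library by 0.95, short of 2-fold, at 3.07 ± 1.14 FPKM (SD, n = 4) against 7.51 ± 1.58 FPKM (SD, n = 3). It was called without both libraries numbered 1, at 1.31. Mbtps1 was higher in every hypothalamus library too, by 0.23, while Pcsk6 (−0.60) and Pcsk7 (−0.38) were higher in every hippocampus library. Over the 5 scalings, libraries stayed apart in 4 for Pcsk6, 3 for Pcsk7, 4 for Pcsk4 and 5 for Mbtps1.

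Of 13 genes for trimming, modification and their cofactors, 2 were called higher in hypothalamus and 2 in hippocampus, with a median difference of 0.32. These counts lie near the shares of all symbols, 13.4% and 14.5%, and the 4 calls also stood without both libraries numbered 1. Qpct, which forms the pyroglutamate end of peptides such as TRH and was listed under an older locus name, was called at 3.02, with a hippocampal mean of 2.11 ± 0.697 FPKM (SD, n = 4) and a hypothalamic mean of 23.5 ± 2.05 FPKM (SD, n = 3). Atox1, a copper chaperone on the route that supplies the amidating enzyme with its metal, read 68.4 ± 27.2 FPKM (SD, n = 4) and 213 ± 12.5 FPKM (SD, n = 3). Called higher in hippocampus, Slc23a2, a vitamin C transporter (vitamin C is a cofactor of amidation), read 39.3 ± 6.48 FPKM (SD, n = 4) and 17.7 ± 1.74 FPKM (SD, n = 3). Ctsl, a protease that also cuts prohormones, was called at −1.04 and fell short of 2-fold under the other 4 scalings. Cpd was called higher in hypothalamus under those 4 scalings and Cyb561 under 2 of them. Both overlapped after rescaling, with all libraries and without both libraries numbered 1.

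Each of 3 further genes, Vgf, Nucb2 and Nucb1, read higher throughout hypothalamus, and 2 of them were called, beside 24.4% and 13.4% of all symbols. Vgf, a granin-like precursor, read 31.3, 18.5, 19.8 and 15.4 FPKM in hippocampus and 91.2, 135 and 205 FPKM in hypothalamus, a difference of 2.41. Nucb2, the precursor of nesfatin, differed by 1.25, and Nucb1 by 0.99. Under each of the other 4 scalings Nucb1 was called too. With both libraries numbered 1 left out, Vgf differed by 2.89, while Nucb2 fell short of 2-fold (0.96) and Nucb1 passed it (1.18). Unlike Vgf, Chgb was higher in every hippocampus library.

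Of 32 genes for the making and release of dense-core vesicles, 7 were called higher in hypothalamus and 8 in hippocampus, and their median difference was −0.10. Of all symbols, 13.4% and 14.5% were called in these directions. The hypothalamic side held Resp18, a protein of dense-core vesicles, at 59.4, 32.4, 35.5 and 29.4 FPKM in hippocampus and 1084, 1213 and 1532 FPKM in hypothalamus. It also held Sytl4 (4.74), Slc18a2, the vesicular monoamine transporter (3.43), and Syt9 (2.88). Of these, Sytl4 and Slc18a2 averaged under 1 FPKM in hippocampus and passed the filter only through hypothalamus. Of the 30 vesicle genes at 1 FPKM or more in both tissues, 5 were called higher in hypothalamus and 8 in hippocampus. Of the 9741 symbols at that level in both, 1034 and 1359 were called in these directions. The hippocampal side held Unc13b (−2.44), Unc13a (−2.02), Stx1a (−1.79) and Syt1 (−1.64), which serve fast transmitter release as well. Of the 8 hippocampal calls, 5 stood under every scaling, as did all 7 hypothalamic ones. All 8 and 7 calls stood without both libraries numbered 1, and further vesicle genes were then called higher in hypothalamus, with differences of 1.02 to 1.42.

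The precursors are the cargo on which these enzymes act. Of 33 peptide precursors, 25 were called higher in hypothalamus (13.4% of all symbols) and 4 in hippocampus (14.5%), and under every scaling 24 and 3 were called. Of the 25, 12 averaged under 1 FPKM in hippocampus and so passed the filter only through the tissue where they are high, as did 1 of the 4 the other way round, so these calls followed in part from the filter. Of the 20 precursors at 1 FPKM or more in both tissues, 13 were called higher in hypothalamus and 3 in hippocampus, beside 1034 and 1359 of 9741 symbols at that level in both. All 25 and 4 calls stood without both libraries numbered 1, and a further precursor was then called higher in hippocampus, at −1.24. Oxt (oxytocin) stood at 0 in each hippocampus library and at 2966, 1024 and 2000.3 FPKM in hypothalamus. Avp (vasopressin) read at most 2.07 FPKM in hippocampus and 3253 ± 448 FPKM in hypothalamus (SD, n = 3), and Pmch and Hcrt differed by 9.30 and 7.55. Higher in hippocampus were Cck (−1.97), Cort (−1.95), Bdnf (−1.70) and Grp (−1.23). Precursors summed to 534 to 858 FPKM per hippocampus library and 7211 to 10032 FPKM per hypothalamus library, beside 2078 to 3311 and 1887 to 2256 FPKM for the 9 processing enzymes and granins read in both tissues, without Scg2. Npy (neuropeptide Y) was listed at 0 in all 7 libraries and adds nothing to these sums. Whether a value of 0 means that the transcript was absent was not tested.

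**Figure D5:**
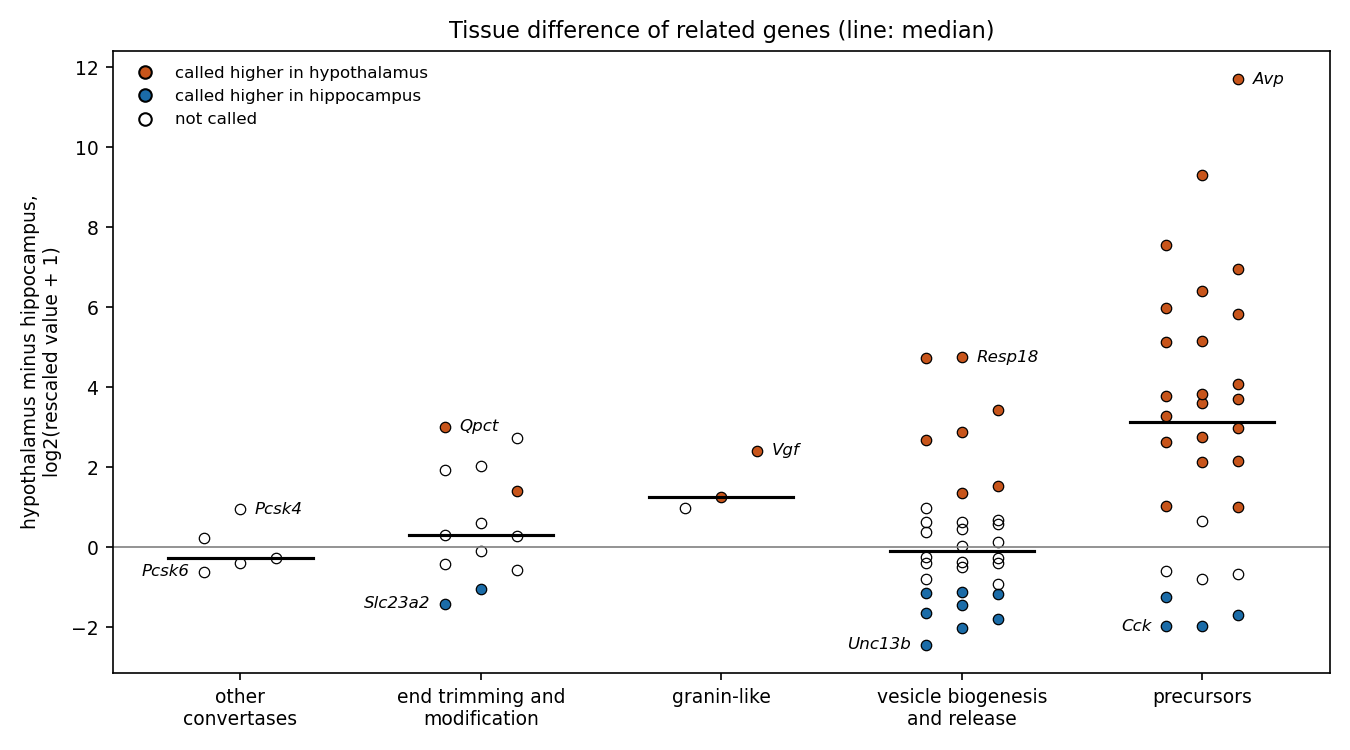
Hypothalamus minus hippocampus of mean log2(rescaled value + 1) for the genes of 5 lists that passed the filter (points: genes; orange and blue: called higher in hypothalamus and in hippocampus; open: not called; line: median). Oxt, Kiss1 and Prlh, which were at 0 throughout hippocampus, are not drawn. The list labelled granin-like holds Vgf, Nucb2 and Nucb1, of which Vgf alone is described as granin-like in the text. Of the precursors, 12 of the 25 called higher in hypothalamus averaged under 1 FPKM in hippocampus, and the median of the vesicle genes is −0.10.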

How the data were processed

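RNA sequencing of 4 hippocampus and 3 hypothalamus libraries was used. Poly-A RNA was, per the labels' protocols, reverse transcribed with random hexamers and sequenced on a HiSeq instrument. The authors deposited FPKM values, as 1 table per tissue, and the submitters' processing notes name TopHat, TopHat2, Bowtie, Bowtie2, Cufflinks, Cuffdiff and the build rn5, with no role or version. The annotation, the strand setting and the normalization are not given in the sources used here. Row identifiers were joined across tables by symbol, and 0 columns of sample values were left unmapped.

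Rows with a status other than OK (86 of 18087 in hippocampus, 24 of 17762 in hypothalamus) were dropped, and the row with the highest mean was taken per symbol. Values were compared as log2(value + 1), which understates changes of low genes, for symbols whose mean reached 1 FPKM in either tissue. Alternatives were 4 other scalings (as deposited, upper quartile, median ratio, equal neuronal markers), pseudocounts of 0.1 and 5, other filters, summed rows, overlap alone, and leaving out libraries. All genes of the 3 shorter pathway lists could be named. Of the vesicle and precursor lists, the 4 called genes with the largest difference in each direction and the gene of highest mean in each tissue could be named. Kiss1, Prlh and Npy are named besides because they were listed at 0 in a tissue. Genes and lists were chosen with earlier results of these data known. Proteins were not analysed here. Python 3.11.15, numpy 2.4.6, pandas 2.3.3 and matplotlib 3.10.9 were used.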

Additional observations from a re-analysis of the deposited data

Results flagged for a closer look

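In hippocampus, 53 sets of 4 values were examined for a library far from the others, by the gap to the nearest library over the whole range (critical value 0.829). For independent sets of normally distributed values, chance alone gives about 1 in 20, or 2.65 of 53, and 7 were found. The sets are not independent, as Chga and its ratio to Chgb share values, and normality was not checked. Whether 7 is more than chance gives is therefore not known.

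The hippocampal row of Chga with the highest mean had a ratio of 0.870, with replicate 4 at 273 FPKM and the others at 0 to 35.6 FPKM. The ratio of Chga to Chgb stood at 0.890 for the same library, at 1.79 against 0 to 0.198. Cpz, a carboxypeptidase, had a ratio of 0.986, with replicate 3 at 12.5 FPKM and the others at 0.576 to 0.742 FPKM. Qpct had a ratio of 0.864, with replicate 4 at 3.15 FPKM and the others at 1.66 to 1.86 FPKM. For Atox1 the ratio was 0.857, with replicate 1 at 109 FPKM and the others at 51.3 to 59.5 FPKM. For Avp it was 0.837, with replicate 1 at 2.07 FPKM and the others at 0 to 0.337 FPKM. For Cck it was 0.933, with replicate 1 at 457 FPKM and the others at 186 to 204 FPKM.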

How the results depend on the processing

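No called value changed sign under the alternatives run. On FPKM as deposited, 928 of all symbols (8.64%) were called higher in hippocampus and 1819 (16.9%) in hypothalamus (1439 after rescaling). The counts were 1 (hippocampus) and 4 (hypothalamus) for trimming and modification, 5 for vesicle genes in hippocampus and 1 for other convertases in hypothalamus. Among the 8 genes, 1 was called and 3 were without overlap in hypothalamus (35.2% of all symbols), with medians of −0.038 for the 8 and 0.21 for all symbols. With equal neuronal markers the like counts were 956 and 1651 (8.9% and 15.4%), 1, 4, 5 and 1 called, with a median of −0.060. Upper-quartile and median-ratio scaling gave 1 for trimming in hippocampus (called: 10.8% and 11.2% of all symbols). They gave 2 of the 8 without overlap in hypothalamus (28.7% and 27.9% of all symbols). A pseudocount of 0.1 gave 1 other convertase in hypothalamus (14.6% of all symbols), and no filter gave a median of −0.63 over 9 genes. Overlap alone gave 3023 and 2621 of all symbols, 2 and 2 other convertases, and 1 of the 8 in hypothalamus. Without both libraries numbered 1, and with the other Chga row (chosen after seeing the data), 1 of the 8 was called and 2 were without overlap in hypothalamus, and 1 other convertase was called without those libraries. Of all symbols, 15.9% were called and 33.2% were without overlap in hypothalamus without those libraries, and 13.4% and 24.4% with that row.

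Leaving out each library in turn gave 0 to 1 of the 8 called and 1 to 2 without overlap in hypothalamus (13.1% to 15.2% and 24.9% to 29.4% of all symbols), 0 to 1 other convertases in hypothalamus, and 1 to 2 (hippocampus) and 2 to 4 (hypothalamus) for trimming. Without the rule of 2-fold, Pam and Chgb would also be called, and Pcsk1, had it passed the filter. With that rule kept, Chga gained a call with other rows or fewer libraries and Pam as deposited and with equal neuronal markers, where Pcsk2 lost its call. Sizes moved also where the call did not change, as with Pcsk1n at −6.58 with its other hypothalamic row. The cause of these changes was not tested. No paired analysis was possible because no test was made and the labels do not say that a replicate number marks the same animal in both tissues. Unknown depth limits what low values such as those of Pcsk1 can show.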
